A study of Mus musculus with 9 samples.

Results

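The strain difference in gene expression between SJL/J and C57BL/6J mice was compared between brain and kidney, gene by gene, as the difference of the log2 strain ratio (SJL/J over C57BL/6J) between the 3 brain arrays and the 3 kidney arrays. Each value is thus a difference of differences: it is above 0 where the SJL/J pool stood higher, relative to C57BL/6J, in brain than in kidney. Of 23040 probes on the array, 16874 carried a single gene symbol (15096 genes), and these were the probes described. Of them, 14692 (13407 genes) had a probe number that is not a multiple of 8, and the other 2182 are given apart, because probes at multiples of 8 had low ratios as a group.

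The series hybridised 9 spotted two-colour arrays, 3 each for whole brain, kidney and liver, and the 6 brain and kidney arrays carry the comparison. All mice were males aged 8 weeks. On every array RNA pooled from 5 SJL/J mice, labelled with Alexa Fluor 647, was set against RNA pooled from 5 C57BL/6J mice, labelled with Alexa Fluor 555, with 20 ug of RNA in each labelling. Each tissue's 3 arrays repeated the hybridisation of 1 pair of pools, so the p-values reflect technical spread and not the spread between mice. The dyes were never exchanged, so within a tissue a strain difference and a probe's dye effect cannot be told apart. The tissue label of the SJL/J channel reads brain on the kidney arrays, whereas their titles, source names and second channel read kidney, and the titles were followed. The log base and the direction of the ratios are inferred and not stated in the labels.

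The genomes of these inbred strains differ by many DNA variants. A variant that acts on a gene wherever it is expressed gives a like ratio in every tissue, whereas one in an enhancer used by a single tissue, or a shift in the cells that make up a tissue, gives a ratio that differs between tissues. Brain is built of neurons, astrocytes, microglia and the oligodendrocytes that make myelin, and kidney of nephrons whose proximal tubule, distal tubule and collecting duct recover filtered solutes and water. In RNA of whole tissue, fewer cells of a type and less RNA per cell cannot be told apart.

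The array labelled brain replicate 3 stood apart from the other brain arrays. Over the 14692 probes, its ratios correlated with those of brain replicates 1 and 2 at r = 0.21 and 0.31, and with those of the kidney arrays at 0.36, 0.32 and 0.38. Brain replicates 1 and 2 correlated with each other at 0.70, and the kidney arrays with one another at 0.67 to 0.68. The residual SD was 0.32 on brain replicate 3, 0.25 and 0.23 on the other brain arrays and 0.20 to 0.21 on kidney and liver arrays. Of the brain arrays, replicate 3 lay nearest to the kidney mean at 6211 of the 14692 probes (42.3%). With 3 brain arrays, an equal share would be 1 in 3. These correlations are across genes, which are not independent, and probes share the array's dyes and scaling. The counts of calls, over all probes and in the gene lists, are therefore given with and without that array.

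**Figure D1:**
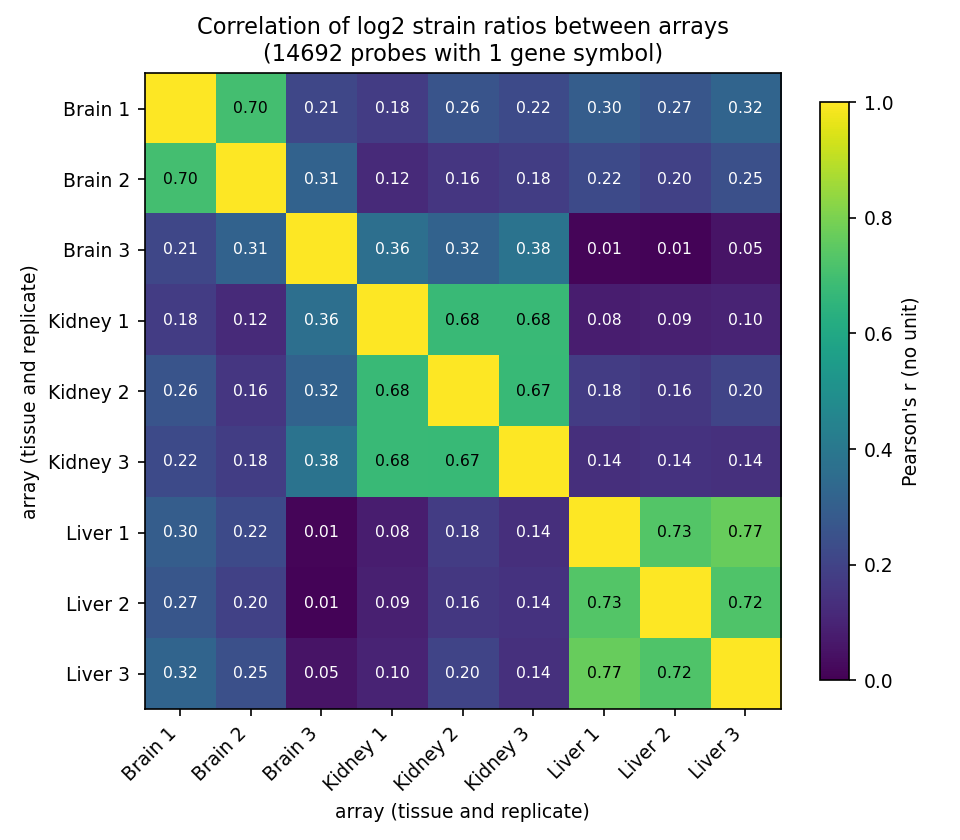
Pearson's r between the log2 strain ratios of each pair of arrays (rows and columns are arrays, named by tissue and replicate, and the colour scale runs from 0 to 1) over the 14692 probes with 1 symbol away from multiples of 8. Brain 3 lies nearer to the 3 kidney arrays (0.32 to 0.38) than to Brain 1 (0.21).

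The strain ratio differed between brain and kidney at 666 of 14692 probes (4.53%; limma's moderated test on all 9 arrays, Benjamini-Hochberg adjusted p under 0.05). It was higher in brain at 229 probes (1.56%) and lower in brain at 437 (2.97%), and 56 and 112 of these, respectively, differed 2-fold or more. Among the 229, the strain ratio itself was called in brain and not in kidney at 115, in kidney and not in brain at 84, and in both with opposite signs at 22. Among the 437 these numbers were 134, 248 and 36, so the larger share of the lower calls came with a called ratio in kidney. At 675 probes the ratio was called in both tissues with the same sign, against 58 with opposite signs. A probe's dye effect can also give the same sign in both tissues, and the design cannot tell it apart from a shared strain difference. The strain ratio was called at 15.6% of probes in brain (8.3% above and 7.26% below 0) and at 23.5% in kidney (14.7% and 8.77%). The 3 brain arrays lay wholly on one side of the 3 kidney arrays at 28.9% of all probes, and at every one of the 666 called.

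Without brain replicate 3, 2000 probes were called (13.6%), 865 higher (5.89%) and 1135 lower (7.73%). Of the calls made with all arrays, 225 of the 229 higher and 425 of the 437 lower were also made without that array. Both fits share all the other arrays, so this overlap is no separate check of the calls. The spread in the fit is pooled with the liver arrays, and on the 6 brain and kidney arrays alone 104 probes were called. Leaving out brain replicate 1 or 2 gave 355 and 111 calls, and leaving out kidney replicate 1, 2 or 3 gave 169, 171 and 199.

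**Figure D2:**
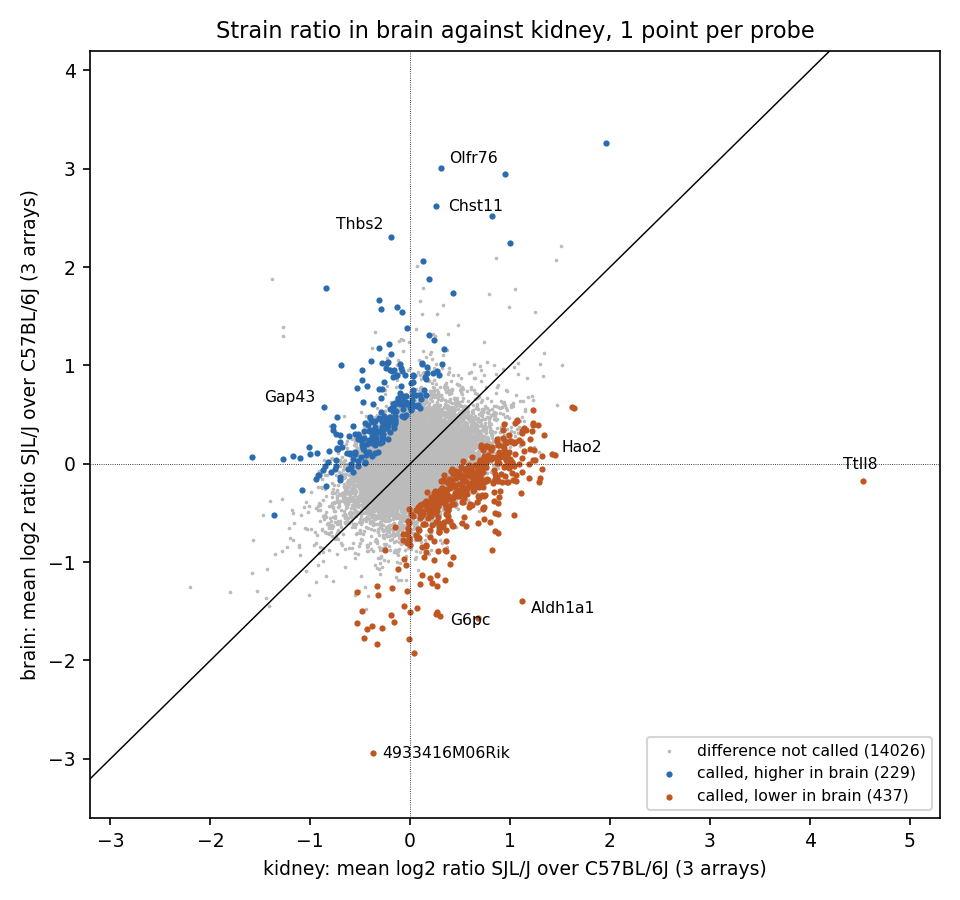
Mean log2 strain ratio of the 3 kidney arrays (x axis) against that of the 3 brain arrays (y axis), 1 point for each of 14692 probes; the solid line marks equal ratios and the dotted lines mark 0. The 229 probes called higher in brain (blue) lie above the line and the 437 called lower (orange) below it, with Ttll8 far to the right.

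Genes with a higher strain ratio in brain than in kidney were led by an olfactory receptor, a matrix protein and genes of varied function, most of them near 0 in kidney. Olfr76, an odorant receptor, had log2 ratios of 3.36, 2.76 and 2.90 on brain replicates 1, 2 and 3, against 0.17, 0.34 and 0.43 in kidney. All brain arrays were high and none came near the kidney arrays. The difference was 2.69 ± 0.20 (SE; a ratio 6.47-fold higher in brain; limma, adjusted p = 0.00045). Thbs2, thrombospondin 2, a glycoprotein of the extracellular matrix that limits the growth of vessels, had 2.67, 2.62 and 1.64 in brain, against -0.24, -0.08 and -0.24 in kidney. Its kidney values lay just below 0, and even the lowest brain array, replicate 3, was well above them. The Thbs2 difference was 2.50 ± 0.24 (SE; limma, adjusted p = 0.00199), and 2.83 without brain replicate 3.

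Pard3b, a cell polarity protein, had 2.03, 2.79 and 1.38 in brain and 0.27, 0.02 and 0.09 in kidney. Knl1, a scaffold of the kinetochore in dividing cells, had 2.23, 1.06 and 1.45 in brain, against -0.20, -0.22 and -0.45 in kidney. The uncharacterised 4930449I24Rik had 1.96, 1.15 and 1.67 in brain, and -0.35, 0.31 and -0.37 in kidney. In all of these the groups of arrays were far apart, though the brain arrays were spread over more than 0.8. The differences were 1.94 ± 0.28, 1.87 ± 0.24 and 1.73 ± 0.24 (SE; limma, adjusted p = 0.00949, 0.00589 and 0.00764). A second probe of Pard3b gave 0.07 and a second probe of Knl1 gave 0.09, neither of them called.

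Chst11, which adds sulfate to chondroitin chains of the matrix, had 2.46, 2.73 and 2.68 in brain and 0.09, 0.34 and 0.35 in kidney. The brain arrays agreed closely, and the difference was 2.36 ± 0.35 (SE; limma, adjusted p = 0.0104), while its other probe gave 0.19 (adjusted p = 0.526). Eno3, the muscle form of the glycolytic enzyme enolase, had 1.20, 2.46 and 1.33 in brain and 0.07, -0.85 and -0.15 in kidney, a difference of 1.98, whereas its other probe gave -0.25. Cap1, which binds actin, differed by 2.00 and Il6ra, a receptor subunit for interleukin 6, by 1.70. Both had ratios above 0 in kidney too (means of 0.95 and 0.82), and each lost its call when any single array other than brain replicate 3 was left out, the differences then lying between 1.76 and 2.25 for Cap1 and between 1.46 and 1.88 for Il6ra.

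Kdm8, an oxygenase that hydroxylates proteins, had 2.58 and 2.89 on brain replicates 1 and 2 but -0.11 on replicate 3, against -0.61, -0.95 and -0.98 in kidney. Replicate 3 lay between the tissues and nearer to kidney. The difference was 2.63 ± 0.61 (SE; limma, adjusted p = 0.0393), 3.58 without that array and 0.74 with it as the sole brain array. The call was lost when any other single brain or kidney array was left out, at differences of 2.08 to 2.75.

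**Figure D3:**
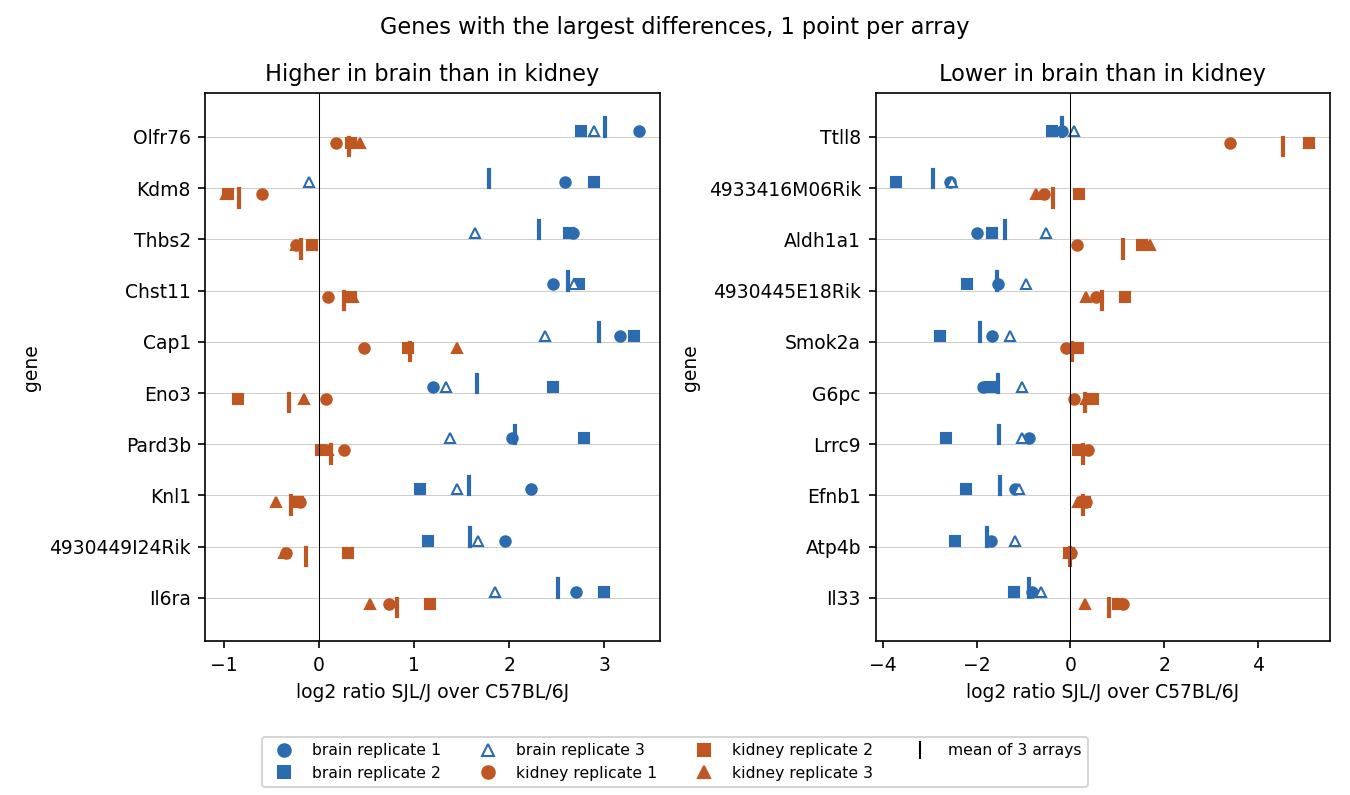
Log2 strain ratio (x axis) on each brain array (blue) and kidney array (orange) for the 10 genes with the highest and the 10 with the lowest differences among called probes whose groups of arrays do not overlap; vertical ticks are means of 3 arrays and the open triangle is brain replicate 3. Kdm8 on brain replicate 3 (-0.11) lies close to its kidney arrays, while Chst11 is alike on all brain arrays (2.46 to 2.73).

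Genes with a lower strain ratio in brain than in kidney were led by Ttll8, and G6pc, Pck1, Aldh1a1 and Hao2, which encode metabolic enzymes, were among them. Ttll8, an enzyme that adds glycine to tubulin, had -0.18, -0.40 and 0.08 in brain, against 3.40, 5.09 and 5.09 in kidney. The brain arrays were near 0, and both upper kidney values were the highest value of the table. The deposited arrays share 1 distribution, so every array holds this value. It gives the probe's rank on the array more than a measured size, and the size of the difference is uncertain. The difference was -4.70 ± 0.38 (SE; limma, adjusted p = 0.000878). G6pc, the catalytic subunit of glucose-6-phosphatase, which frees glucose in liver and kidney, had -1.88, -1.72 and -1.03 in brain, and 0.08, 0.49 and 0.34 in kidney. Its ratio was below 0 on all brain arrays and slightly above 0 on all kidney arrays, while the liver mean was -2.73. The G6pc difference was -1.85 ± 0.21 (SE; limma, adjusted p = 0.00427), and -2.10 without brain replicate 3. Pck1, which opens glucose synthesis and is high in the proximal tubule, had -0.43, -1.18 and 0.06 in brain and 1.64, 0.99 and 0.49 in kidney, a difference of -1.56 ± 0.35 (SE; limma, adjusted p = 0.0363).

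Aldh1a1, a dehydrogenase that makes retinoic acid, had -1.99, -1.69 and -0.52 in brain, against 0.14, 1.53 and 1.70 in kidney. Both tissues were spread widely, with brain replicate 3 and kidney replicate 1 facing each other across the gap. The difference was -2.52 ± 0.51 (SE; limma, adjusted p = 0.0261), and its call was lost without brain replicate 1 (-2.23), brain replicate 2 (-2.38), kidney replicate 2 (-2.32) or kidney replicate 3 (-2.24). Hao2, which oxidises hydroxy acids in peroxisomes of the kidney, had -0.09, 0.00 and 0.39 in brain and 1.48, 1.44 and 1.34 in kidney. The kidney arrays were alike and clear of the brain arrays, with a difference of -1.32 ± 0.15 (SE; limma, adjusted p = 0.00395).

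Among the other lowest differences, 4933416M06Rik (-2.56), 4930445E18Rik (-2.25) and Lrrc9 (-1.78) belong to genes of little known function. Smok2a, a sperm motility kinase gene, had a difference of -1.96, Efnb1, a membrane ligand of Eph receptors, one of -1.78, and Atp4b, the beta chain of the stomach's acid pump, one of -1.77. In Smok2a, Efnb1 and Atp4b the kidney means lay between -0.02 and 0.27 and all brain arrays were below -1. Lrrc9 lost its call without any one of the kidney arrays (-1.72, -1.83 and -1.79 without replicates 1, 2 and 3), and its brain value rested most on replicate 2 (-2.67, against -0.88 and -1.03).

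Some differences kept their call over many ways of handling the arrays. With each brain or kidney array left out in turn, 89 of the 666 called probes kept their call, 33 higher and 56 lower in brain. Under every alternative run, apart from those added after the data were seen, 48 kept it, 21 higher and 27 lower. The genes described next were taken from these 48 after their values were seen. Of the 7 among the 48 with a second probe, Stk25 had a called second probe in the same direction and Map7d2 one in the opposite direction.

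Among the lower ones, several were near 0 in brain and raised in kidney on every array. Hrh1, the histamine H1 receptor, had 0.09, 0.04 and 0.10 in brain, against 1.36, 1.25 and 1.37 in kidney. Ucp1, the uncoupling protein of brown fat, had -0.14, 0.01 and -0.12 in brain and 1.11, 1.04 and 1.21 in kidney. Capn10, a calpain protease, had 0.14, 0.06 and 0.06 in brain and 1.59, 1.41 and 1.36 in kidney. These belong to the tightest values of the comparison, with no array departing by as much as 0.2 from its tissue's mean. Their differences were -1.25 ± 0.12, -1.20 ± 0.12 and -1.36 ± 0.13 (SE; limma, adjusted p = 0.00199, 0.0021 and 0.00199). Acy1, an aminoacylase that frees amino acids from their acetyl form and is abundant in kidney, had -0.18, -0.51 and 0.13 in brain and 1.12, 1.22 and 1.52 in kidney, a difference of -1.48 ± 0.18 (SE; limma, adjusted p = 0.00466). Csk, a kinase that restrains the Src family, differed by -1.10, and in Fabp9, a fatty acid binding protein, the ratio was called above 0 in both tissues (means of 0.57 and 1.62) and lower in brain by -1.05.

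Other lower genes were clearly below 0 in brain. Steap3, a reductase of iron in endosomes, had -1.43, -1.81 and -1.27 in brain, against 0.26, -0.24 and -0.04 in kidney. The difference was -1.50 ± 0.18 (SE; limma, adjusted p = 0.00466), and a second probe gave -0.22, not called. Stk25, a kinase of the Golgi, had -1.72, -1.50 and -1.81 in brain and -0.33, -0.43 and -0.55 in kidney. Its ratio was called below 0 in both tissues, brain replicate 3 was the array farthest from kidney, and the difference of -1.24 (limma, adjusted p = 0.00361) was matched by -1.31 at the second probe (adjusted p = 0.0126). Pilra, an inhibitory receptor of myeloid cells, differed by -1.39, Crabp1, which binds retinoic acid in the cytosol, by -1.21, and Pnmt, which turns noradrenaline into adrenaline, by -0.99.

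Among the higher ones, Lpl, lipoprotein lipase, which frees fatty acids from lipoproteins in fat, muscle and brain, had 1.07, 1.01 and 0.99 in brain, against -0.16, -0.20 and -0.46 in kidney. Brain replicate 3 was level with the other brain arrays, and the difference was 1.30 ± 0.13 (SE; limma, adjusted p = 0.00219). Cartpt, the precursor of a hypothalamic peptide that curbs feeding, had 0.92, 1.35 and 0.85 in brain and -0.23, -0.29 and -0.13 in kidney, a difference of 1.26 ± 0.15 (SE; limma, adjusted p = 0.00466). Itsn2, a scaffold of endocytosis, had 1.54, 2.33 and 1.77 in brain and -0.03, 0.35 and 0.26 in kidney, a difference of 1.69. The kidney ratios of Cartpt and Itsn2 were not called. Rad51ap1, of homologous recombination (1.63), Apol7a, of the apolipoprotein L family (1.48), Cnn1, the calponin of smooth muscle (1.26), and Cep55, of the midbody (1.21), were of the same kind. The probe of Gnb1-ps2 (1.31) carries the name of a pseudogene and may also bind the transcript of its parent gene.

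In 58 probes the strain ratio was called in both tissues with opposite signs, 22 of them higher in brain and 36 lower. All 58 were called in the difference, which nearly follows from the opposite calls, as these tests share 1 fit and 1 spread per probe. Gap43, a protein of nerve growth cones, had 0.37, 0.57 and 0.79 in brain, against -1.06, -0.77 and -0.74 in kidney. Every brain array was above 0 and every kidney array below it, and brain replicate 3 was the highest. The difference was 1.43 ± 0.15 (SE; limma, adjusted p = 0.00313). Polk, a DNA polymerase that copies past damaged bases, had 0.996, 1.07 and 0.48 in brain and -0.61, -0.48 and -0.34 in kidney, a difference of 1.33 ± 0.17 (SE; limma, adjusted p = 0.0051). Map7d2, which binds microtubules in neurons, had 1.05, 1.33 and 0.77 in brain and -0.43, -0.40 and -0.35 in kidney, a difference of 1.44. Its second probe was called in the other direction, at -0.93 (limma, adjusted p = 0.032), so the symbol as a whole has no settled direction. Rny1, a short noncoding RNA of Ro ribonucleoprotein particles, had 1.53 and 1.38 on brain replicates 1 and 2 but 0.11 on replicate 3, against -0.85, -0.38 and -0.84 in kidney. Its difference of 1.70 was called with all arrays and without brain replicate 3 (2.15), but not when any other single brain or kidney array was left out (1.43 to 1.85).

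In the other direction, Il33, a cytokine released by injured cells, had -0.81, -1.20 and -0.63 in brain and 1.13, 1.02 and 0.32 in kidney. The difference was -1.70 ± 0.22 (SE; limma, adjusted p = 0.00571). Taf8, a subunit of the general transcription factor TFIID, had -0.71, -0.99 and -0.06 in brain and 0.70, 0.69 and 1.01 in kidney. Lypd6b had -1.16, -0.90 and 0.00 in brain and 0.93, 0.41 and 1.21 in kidney. For Taf8 and Lypd6b brain replicate 3 lay near 0, the other brain arrays were clearly negative, and the differences were -1.39 and -1.54. Lypd6b lost its call without brain replicate 1 (-1.30), brain replicate 2 (-1.43), kidney replicate 1 (-1.50) or kidney replicate 3 (-1.36). The uncharacterised 1700019N19Rik differed by -1.37. Atp6ap2, the prorenin receptor and a part of the vacuolar proton pump, had -0.45, -0.38 and -0.16 in brain and 0.75, 0.81 and 0.66 in kidney, a difference of -1.07 ± 0.12 (SE; limma, adjusted p = 0.00423).

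Across 54 lists of functions and cell types, most had few members called with all arrays. Against 4.53% of all probes, some lists had a larger share, such as skeletal muscle (2 higher and 2 lower of 21 probes), while others had 0 calls. Skeletal muscle had 3 higher and 4 lower without brain replicate 3, when 13.6% of all probes were called. The median difference over all 14692 probes was -0.03, with 229 called higher and 437 lower, and -0.04 without brain replicate 3, with 865 and 1135. Medians of the nervous system lists named here lay between -0.08 and 0.04. Of 69 probes for synaptic vesicle and SNARE proteins, which release transmitter, 1 was called higher and 3 lower, with a median of -0.05: Syt13 differed by 0.71, Rims1 by -1.01 (0.25 at its other probe), Rph3a by -0.79 (-0.08 at its other probe) and Stx3 by -0.63. In the fit lacking brain replicate 3, 9 of these 69 probes were called higher and 8 lower, with a median of -0.06. Of 42 probes for receptors of monoamines, acetylcholine and opioids, 2 were higher and 3 lower (median -0.08). Besides Hrh1 these held Hrh3, the histamine H3 receptor of nerve endings (0.79), Chrna4, a nicotinic receptor subunit (1.04, and -0.31 at its other probe), and Drd2, the dopamine D2 receptor (-0.82). When brain replicate 3 was left out, 4 were higher and 4 lower. Of 56 potassium channel probes, 1 was higher and 1 lower (median -0.05), Kcnc1 at 0.59 and Kcnn3 at -0.95, and without brain replicate 3 these counts were 2 and 4. Kcnc1 was not called without that array (0.49, limma, adjusted p = 0.0527). Glutamate receptors had 1 call of 20 (Grm8, 0.58), neuropeptides 1 of 21 (Cartpt) and receptors of GABA and glycine 0 of 15. At an unadjusted p under 0.05 (limma), 6 of these 15 probes passed, against 3505 of all 14692 probes. The calls without brain replicate 3 were 2 higher and 1 lower for glutamate receptors, 1 and 1 for receptors of GABA and glycine, and 1 and 0 for neuropeptides.

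Markers of brain cells had few calls with all arrays. Of 25 neuron probes Gap43 was the sole call (median 0.07), whereas without brain replicate 3 there were 3 higher and 2 lower (median -0.03). Of 15 astrocyte probes 2 were called, both higher in brain (median 0.10): Aldoc, the brain aldolase, differed by 0.60, and Gfap, the filament of astrocytes, by 0.63, but a second Gfap probe gave -0.73 (limma, adjusted p = 0.061). Astrocyte probes without brain replicate 3 had 4 calls higher and 0 lower. Of 22 probes for oligodendrocytes and myelin, 2 were called, both lower (median -0.14). Mog, a myelin surface protein, had -1.45, -0.97 and -0.48 in brain, against 0.08, -0.08 and -0.19 in kidney. Mal, a proteolipid of myelin that kidney tubules express as well, had -0.58, -0.22 and -0.42 in brain and 0.34, 0.35 and 0.62 in kidney. Their differences were -0.91 and -0.84 (limma, adjusted p = 0.0437 and 0.0299). Without brain replicate 3, 2 myelin probes were higher and 7 lower, with a median of -0.29. Of 18 probes for microglia and macrophages, Cd14, a receptor for bacterial lipopolysaccharide, was higher at 0.75, while Tyrobp, a signalling adaptor, and Adgre1, the F4/80 antigen, were lower at -1.19 and -1.10 (median 0.02), and without brain replicate 3 the counts were again 1 and 2.

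In the markers of kidney, the collecting duct had 3 calls of 18 probes, all lower in brain, with a median of -0.19, against 1 higher and 2 lower without brain replicate 3. Rhbg, an ammonium transporter, had -0.13, -0.46 and 0.15 in brain and 0.86, 0.91 and 0.78 in kidney. Scnn1a, a subunit of the epithelial sodium channel, had -0.20, -0.26 and -0.04 in brain and 0.76, 0.63 and 0.48 in kidney. Aqp2, the water channel set by vasopressin, had 0.44, 0.39 and 0.11 in brain and 0.83, 0.96 and 1.55 in kidney. In all of them the kidney arrays were the higher ones, and the ratio was called above 0 in kidney and not called in brain. The Rhbg ratio was 2.00-fold lower in brain, and those of Scnn1a and Aqp2 differed by -0.79 and -0.80 on the log2 scale (limma, adjusted p = 0.0171, 0.0228 and 0.0469), and Aqp2 was not called without brain replicate 3 (-0.70, adjusted p = 0.0592). Of 28 proximal tubule probes Pck1 was the sole call (median 0.00), of 12 distal probes Cldn19, a tight junction protein, was (-0.66), and 0 of 11 podocyte probes and 0 of 47 probes for renal solute carriers were called (limma; 3 and 9 at an unadjusted p under 0.05, against 3505 of all 14692 probes). Kidney lists without brain replicate 3 had 2 calls higher and 3 lower for the proximal tubule, 0 and 1 for distal segments, 0 and 0 for podocytes, and 1 and 2 for renal solute carriers. Klk1b11, a kallikrein, differed by 0.70, with 0.75 (adjusted p = 0.0514) and -0.32 at its other probes, but kallikrein genes are near-identical and a probe may bind several of them.

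**Figure D4:**
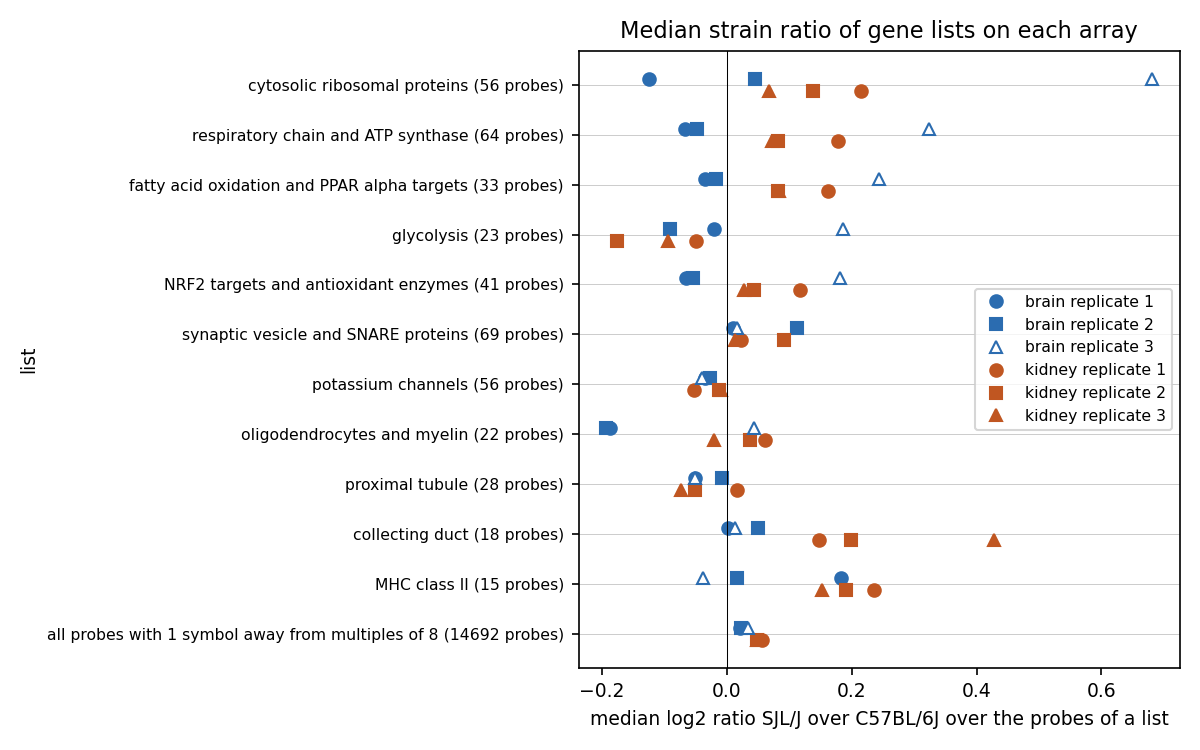
Median log2 strain ratio (x axis) over the probes of 11 gene lists and of all probes (rows, with the number of probes) on each brain array (blue) and kidney array (orange). On brain replicate 3 (open triangle) the median of ribosomal proteins was 0.68, against -0.13 to 0.21 on the other brain and kidney arrays, while collecting duct markers lay higher on the kidney arrays (0.15 to 0.43).

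Ribosomal and mitochondrial genes moved with brain replicate 3. The 56 probes for cytosolic ribosomal proteins had medians of -0.13, 0.05 and 0.68 on brain replicates 1, 2 and 3, and 0.21, 0.14 and 0.07 in kidney. Brain replicate 3 was above, and replicates 1 and 2 below, all kidney arrays. The median difference was 0.03 with all arrays, -0.27 without brain replicate 3 and 0.51 with it as the sole brain array, so its sign depends on that array. Calls were 0 higher and 1 lower with all arrays (Rplp0, -0.88) and 0 and 9 without it. The 64 probes of the respiratory chain and ATP synthase had medians of -0.07, -0.05 and 0.32 in brain and 0.18, 0.08 and 0.07 in kidney. Their median difference was -0.07, and -0.32 and 0.21 without and with only that array. Calls were 1 higher and 3 lower with all arrays, and 3 and 7 without it. Uqcrq, a subunit of complex III, differed by -0.70, Ndufs3, of complex I, by -0.84, and the tissue-restricted Cox8b and Cox4i2, of cytochrome oxidase, by -1.02 and 0.64.

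In metabolism, the calls among 16 probes of glucose release were G6pc and Pck1, both lower in brain, and those among 23 glycolysis probes were Eno3 and Aldoc, both higher. Glucose release had 1 higher and 3 lower without brain replicate 3, and glycolysis 2 and 1. Cholesterol synthesis and uptake had 2 lower calls of 19, Sqle, squalene epoxidase (-0.96), and Pmvk (-0.72), and 0 and 2 without brain replicate 3. Among 41 probes for NRF2 targets and antioxidant enzymes, Sod3, the extracellular superoxide dismutase, was lower at -0.98 and Gpx3, a glutathione peroxidase that kidney secretes into plasma, higher at 0.78, while without brain replicate 3 there were 2 higher and 1 lower. Fatty acid oxidation had 0 calls of 33 and glutathione and conjugation enzymes 0 of 39, against 2 in each without brain replicate 3. With all arrays, 6 and 8 of their probes had an unadjusted p under 0.05 (limma), against 3505 of all 14692 probes.

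Lists of immune and secreted genes held between 0 and 4 calls with all arrays. Ifi27l2a, induced by interferon, had 0.37, 0.38 and 0.12 in brain, against 1.61, 1.10 and 1.33 in kidney, and differed by -1.05 ± 0.16 (SE; limma, adjusted p = 0.0101). Of 47 interferon-induced probes, 1 was higher (Eif2ak2, 0.67, with 0.06 at its other probe) and 3 lower, Trim25 (-1.04) and Parp14 (-0.62) besides Ifi27l2a, and the counts were the same without brain replicate 3. Complement and coagulation had 3 lower calls of 44, C2, Cfp and Proc (-0.75, -0.69 and -0.62), and 2 higher and 4 lower without brain replicate 3. With all arrays and line and column medians removed, 1 was called higher and 0 lower, against 201 and 280 of all 14692 probes. MHC class II, which presents antigen to helper T cells, had 0 of 15 called (1 higher without brain replicate 3), with a median of -0.07. An unadjusted p under 0.05 (limma, all arrays) was found at 4 of the 15, against 3505 of all 14692 probes. Of 31 acute phase and stress response probes, 3 were higher (Il6ra, Lcn2 and Cd14) and 1 lower (Fkbp5, -0.54), with a median of -0.07, against 4 and 3 without brain replicate 3. Lcn2, which binds bacterial iron carriers, had 1.17, 1.33 and 1.15 in brain and -0.50, -0.04 and -0.08 in kidney, a difference of 1.42 ± 0.24 (SE; limma, adjusted p = 0.0148), with a liver mean of 3.40. Of 23 probes for immediate early genes, switched on by stimulation, 0 were higher and 2 lower, Fos and Arc (-1.04 and -0.92), while the median was 0.05. These became 3 higher and 3 lower without brain replicate 3, with a median of 0.20.

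Cell cycle, matrix, chaperone and selenium genes came next. Of 69 cell cycle and replication probes, 1 was higher and 3 lower (median -0.11), among them Mad2l1, of the spindle checkpoint (-1.16), and Pttg1, securin (-1.09), both lower, and Smc2, a condensin subunit, higher (0.73, and -0.20 at its other probe). The counts were 3 higher and 3 lower without brain replicate 3. Of 73 probes for collagens and matrix, Thbs2 was higher, and Timp3, an inhibitor of metalloproteinases, and Lama4, a laminin chain, were lower at -1.24 and -0.70 (median -0.07), and without brain replicate 3 there were 3 higher and 2 lower. Hspa5, the chaperone of the endoplasmic reticulum, was the sole call of 47 heat shock probes, at 0.89, while its other probe gave -0.71. Leaving out brain replicate 3 gave 3 heat shock probes called higher and 7 lower, so that most calls then lay in the other direction, with medians of -0.06 with and -0.10 without that array. Of 22 probes for selenium handling, Trnau1ap, which helps to decode selenocysteine, was lower at -1.07, as was Secisbp2l at -0.76, and Gpx3 was higher. Calls were 1 higher and 2 lower also without brain replicate 3, but 1 and 0 with all arrays and line and column medians removed.

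Among markers of other tissues, 3 of 25 hepatocyte probes were higher in brain, Serpina1b (1.25), Serpina1a (1.16) and Serpina1c (0.87), protease inhibitors of plasma, and 3 were higher and 3 lower without brain replicate 3. Their ratios were near 0 in brain (0.00 to 0.21 on all arrays) and below 0 in kidney (-1.49 to -0.40). These genes are near-identical copies, so their probes cannot be read as separate observations. Of 159 probes for olfactory and vomeronasal receptors, which belong to nasal epithelium, 9 were higher and 7 lower (median 0.04), and 17 and 14 without brain replicate 3 (median 0.08). After Olfr76 came Olfr139, at 1.42 (-0.27 at its other probe), Vmn1r171, at 1.15, and Vmn2r10, at 1.12. Lists of lymphocytes (27 probes), endothelium and pericytes (19), erythroid cells (11) and choroid plexus and ependyma (9) had 0 calls with all arrays. In that order, 7, 4, 7 and 1 probes had an unadjusted p under 0.05 (limma), against 3505 of all 14692 probes. Without brain replicate 3 these lists had 2, 2, 3 and 0 calls. Whether cell composition played a part in any difference was not tested.

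Strain alleles are known for Nnt and Dysf. Nnt, partly deleted in C57BL/6J, had 0.25, 0.51 and 1.06 in brain and 0.15, 1.05 and 0.80 in kidney. It was above 0 on all of these arrays, the groups overlapped, and the difference was -0.06 (95% interval -0.65 to 0.53; limma, adjusted p = 0.917). Dysf, the dysferlin gene, in which SJL/J carries a splice variant, had 0.14, 0.09 and -0.32 in brain and 1.14, 1.07 and 0.63 in kidney. The Dysf difference was -0.97 at this probe (limma, adjusted p = 0.0193) and -0.18 at its other probe (adjusted p = 0.415).

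Some of the genes with the largest differences without brain replicate 3 had a value on that array far below those on brain replicates 1 and 2. Scel, a protein of cornified skin, had 3.66, 3.58 and -1.59 on brain replicates 1, 2 and 3, and -2.21, -0.25 and -1.69 in kidney. Its difference was 5.00 without brain replicate 3 (limma, adjusted p = 0.00084), 3.27 with all arrays (adjusted p = 0.122) and -0.21 with that array alone. Gm26504 had 3.10, 2.98 and -0.04 in brain and 0.08, 0.11 and 0.01 in kidney. It differed by 2.98 without brain replicate 3 and 1.95 with all arrays, while a second probe with the same symbol, at a multiple of 8, gave 1.45 with all arrays (adjusted p = 0.0101). Malat1, a nuclear noncoding RNA, had 1.84, 2.18 and 0.01 in brain and -0.24, -0.21 and -0.60 in kidney. Its difference was 2.36 without that array and 1.69 with it, and its other 2 probes gave 0.80 and 0.66 with all arrays. Tuba4a, 1600010M07Rik and 2900060B14Rik differed by 4.16, 3.91 and 2.65 without brain replicate 3 and by -0.32, -0.12 and -1.61 with it as the sole brain array. Erlin1, of the endoplasmic reticulum, went the other way, with -2.40, -2.24 and -0.87 on brain replicates 1, 2 and 3. It was called both without brain replicate 3 (-1.99) and with all arrays (-1.51).

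A gene's second probe seldom shared its call. The 36 genes with a higher call and other single-symbol probes had 61 such probes, of which 1 was called the same way (Klk1b2-ps) and 2 the opposite way, with a median of -0.09, against 0.74 for the most extreme probes. The 66 genes with a lower call had 269 other probes, 7 called the same way, in Stk25 and Tcrb-V8.2, and 2 the opposite way, with a median of -0.11, against -0.79. Adam22 and Map7d2 had calls in both directions. The counts and medians of other probes are over probes, so a gene with many probes weighs more in them. The most extreme probe was chosen by its value, so the gap between it and the others carries no test.

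Probes at multiples of 8 had low strain ratios as a group and lower ones in kidney than in brain. Their medians were -0.29, -0.14 and -0.12 on brain replicates 1, 2 and 3 and -0.37, -0.36 and -0.31 in kidney, while probes at other numbers had medians of 0.02 to 0.06. The strain ratio was called at 28.6% of them in brain (2.66% above and 26.0% below 0) and at 50.2% in kidney (1.24% and 49.0%). In the difference 147 of 2182 were called (6.74%), 137 higher in brain (6.28%) and 10 lower (0.458%). Without brain replicate 3, 332 were called (15.2%), and, with all arrays, 72 once line and column medians had been taken out, 50 higher and 22 lower. The brain and kidney arrays did not overlap at 31.6% of these probes. Of these probes 231 were replicate spots of Gapdh.

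**Figure D5:**
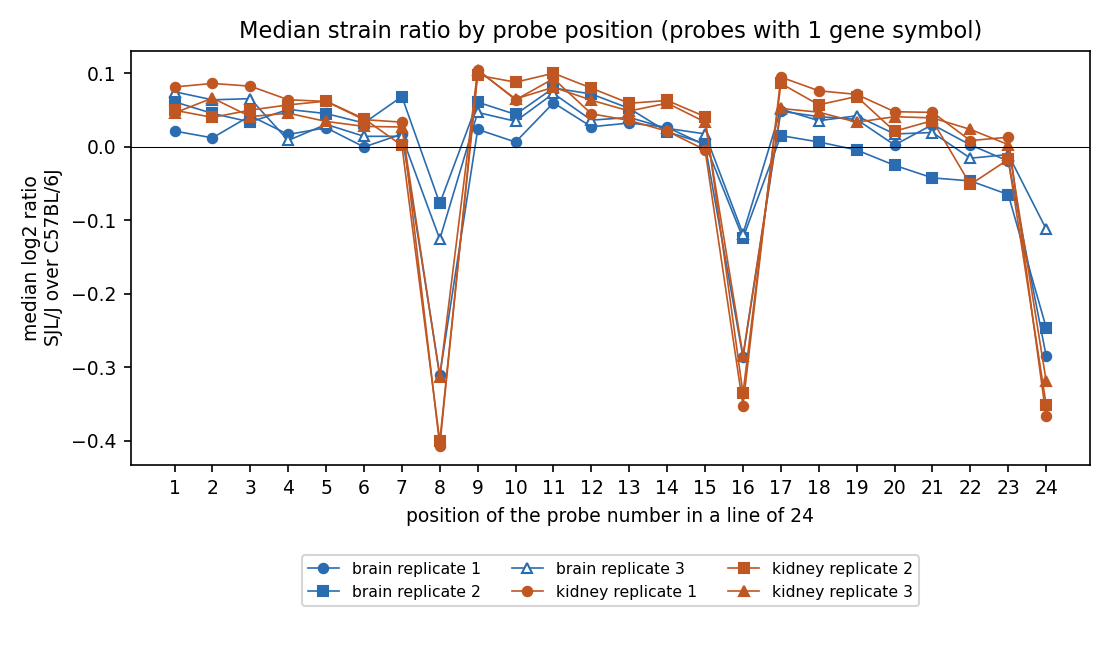
Median log2 strain ratio (y axis) of probes with 1 symbol by the position of the probe number in a line of 24 (x axis), 1 line for each brain array (blue) and kidney array (orange). At positions 8, 16 and 24 the medians drop on all arrays, and on the kidney arrays they lie near or below those of the brain arrays.

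The named probes at multiples of 8 carry that group's shift in the values given. Gabra2, a subunit of the GABA-A receptor, had 0.94, 1.12 and 1.06 in brain, against -0.72, -0.99 and -0.80 in kidney. The arrays of each tissue were tight and of opposite sign, and the difference was 1.88 ± 0.14 (SE; limma, adjusted p = 0.00045), but its other probe, away from multiples of 8, gave 0.16 (adjusted p = 0.437). Dpp6, which tunes potassium channels of neurons, had -1.03, -0.13 and -0.56 in brain and -2.56, -2.40 and -2.41 in kidney, a difference of 1.88. Cxcr2, a chemokine receptor of neutrophils, had -0.37, -1.52 and -1.04 in brain and -2.94, -2.57 and -2.94 in kidney, a difference of 1.84. After removal of line and column medians Gabra2, Dpp6 and Cxcr2 had 1.79, 1.62 and 1.93. The next were 9330198N18Rik (1.69) and Rnaseh2a (1.50), and the lowest were 4931415C17Rik (-1.52), Marveld3 (-1.10), Traf5 (-1.03), Nat8 (-0.86) and 9530014B07Rik (-0.77).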

How the data were processed

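The authors deposited a log ratio, read as log2, for each spot on each array, with SJL/J as numerator because the labels name that strain first; neither point is stated. Per the submitters' processing notes, the authors used R 2.0.0 and limma. The 9 columns held identical sorted values (median 0.01, range -3.91 to 5.09, 0 missing), so the arrays as deposited share 1 distribution; the step that made it so is not given in the sources used here. Their background correction is not given in the sources used here. Without intensities no filter on dim spots was possible, and the precision is set by how many arrays there are. GEO's platform annotation gave the names: 134 probes had several symbols and 6032 none. A RefSeq table held the gene identifiers of 16196 probes and changed 0 symbols.

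With limma 3.58.1 (R 4.3.3), lmFit and eBayes estimated a mean for each tissue from all 9 arrays (6 residual degrees of freedom, prior 4.24), and brain minus kidney was tested two-sided with Benjamini-Hochberg adjustment over all 23040 spots at 0.05. The procedure was also run on simulated data with independent normal noise around each probe's mean and set changes in brain. Those data lacked the likeness of brain replicate 3 to the kidney arrays and the shared distribution. The run therefore does not bear on calls that depend on these. Values are log2 ratios per array, and differences carry the standard error of the fit.

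Members, lists and rules were chosen with earlier results of these data known. Named were the 10 highest and 10 lowest called differences whose arrays did not overlap and that were also called without brain replicate 3, the 10 highest and 10 lowest called without that array, the 10 largest with opposite calls, up to 4 called members of each of 54 lists, 5 and 5 at multiples of 8, and Nnt. A gene counted by its most extreme probe. Alternatives left out single arrays or the liver arrays, weighted arrays, added a replicate block, removed line and column medians, recentred the arrays, dropped multiples of 8 or used a robust prior.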

Additional observations from a re-analysis of the deposited data

Results flagged for a closer look

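The strain ratio was called in brain and kidney with opposite signs at 58 probes. The limma test of the difference comes from the same fit, so it is no separate support for these probes. The 10 genes with the largest such differences were Aldh1a1 (-2.52), 4930445E18Rik (-2.25), Il33 (-1.70), Rny1 (1.70), Lypd6b (-1.54), Map7d2 (1.44), Gap43 (1.43), Taf8 (-1.39), 1700019N19Rik (-1.37) and Polk (1.33), each as log2 ratio in brain minus kidney. The other called probes differ between the tissues by the same test and are counted in the text. Outside the probes described, 400 of the 6032 unnamed probes were called in the difference, 230 higher and 170 lower in brain. With 3 arrays per tissue, single outlying arrays were not tested.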

How the results depend on the processing

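The number of probes called in the difference depended on which arrays entered and how they were weighted. Away from multiples of 8 the 666 calls became 111 to 2000 with 1 array left out, 229 with brain replicate 3 as the sole brain array, 104 on the 6 brain and kidney arrays and 2147 with array weights. At multiples of 8 the 147 calls became 19 to 332, 35, 25 and 408 in that order, and 72 with line and column medians removed. Opposite calls, 58 with all arrays, became 17 to 191 with 1 array left out, 24 on 6 arrays and 171 with array weights. With the replicate number as a block, 309 probes were called away from multiples of 8, 70 at them and 46 with opposite signs; the numbers are not known to pair the arrays, and residuals of same-numbered brain and kidney arrays correlated at -0.085, 0.006 and 0.020. Removing line and column medians away from multiples of 8 gave 481 calls, recentring 661 (275 higher and 386 lower), dropping multiples of 8 627 and a robust prior 682. Without brain replicate 3, alternatives added after the data were seen gave 1574 to 2039 calls. Signs turned with brain replicate 3 as the sole brain array for Scel (-0.21), Tuba4a (-0.32), 1600010M07Rik (-0.12), 2900060B14Rik (-1.61), Gm26504 (-0.11) and Nnt (0.40), and for Nnt also without brain replicate 1 (0.12), kidney replicate 2 (0.13) or kidney replicate 3 (0.01). The causes were not tested. Of 115 called genes named by the rule, 35 kept their call with each array left out. Under every alternative run, apart from those added after the data were seen, 22 kept their call. All 115 kept their direction under these same alternatives. Their brain and kidney arrays did not overlap, so leaving out or weighting arrays could not have turned it. Signal over background was not available here, so no limit from dim spots could be given.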
